A study of Mus musculus with 6 samples.

Results

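The mouse genes whose symbols run from Zfp900 to Zfp999 were described in epiblast-like cells (EpiLC) and embryonic stem cells (ESC). A gene was a member when its Ensembl identifier in the count table carried a symbol made of Zfp9 and 2 further digits in GENCODE release M21 on GRCm38. This gave 64 of the 51826 genes in the table, of which 63 were annotated as protein-coding and 1, Zfp939, as a pseudogene. Total RNA was sequenced in 3 EpiLC and 3 ESC libraries of wildtype V6.5, a mouse ESC line. EpiLC are cells moved from the naive state of ESC towards the state of the early post-implantation epiblast, and they were labelled day 3 with Lif and 2i withdrawn. ESC were kept in Lif, a cytokine that holds cells in the naive state, with 2i, inhibitors of the kinases GSK3 and MEK, and both states shared a Knockout DMEM medium with 15% serum. Nothing in the labels says that the libraries of a state came from separate cultures, so p-values measure the spread between these libraries, which may be technical.

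Most of these genes encode KRAB zinc finger proteins. Such a protein binds DNA through an array of C2H2 zinc fingers, and its KRAB domain recruits the corepressor TRIM28, which brings in the histone methyltransferase SETDB1 and heterochromatin proteins. In mouse ESC and early embryos this pathway is known for silencing endogenous retroviruses and other transposable elements and for protecting imprints. Many mouse KRAB zinc finger genes lie in tandem clusters that arose by recent duplication, so neighbours can be nearly identical in sequence.

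Library totals were between 9710410 and 22879812 counts, and a level of 3 counts, the limit that a count of 0 allows, lay between 0.135 and 0.301 CPM. CPM here is the count scaled to a common library total after TMM normalisation, and the limit covers counting error only. All 7 naive markers were lower in EpiLC, with a summed level of 284 to 292 CPM in EpiLC libraries and 2875 to 3118 CPM in ESC libraries, and all 5 formative markers were higher, with 1180 to 1451 CPM in EpiLC and 130 to 140 CPM in ESC. Nanog averaged 242 CPM of the naive sum in EpiLC, and Dnmt3b averaged 1161 CPM of the formative sum there and 125 CPM in ESC. Markers of other cell types were also read. The 4 neural markers summed to 360 to 410 CPM in EpiLC and 39.3 to 83.4 CPM in ESC, and 4 of 4 were higher. Nes supplied most of that sum, with a mean of 352 CPM in EpiLC and 43.2 CPM in ESC. The EpiLC means of the others were 17.5 CPM for Sox1, 9.14 CPM for Pax6 and 1.32 CPM for Zic1. The 7 fibroblast markers summed to 13.1 to 16.96 CPM in EpiLC, where Lum was at 0, and 3.48 to 4.24 CPM in ESC, where Dcn and Postn were at 0, and 3 of 4 tested were higher. The 5 primitive endoderm markers summed to 14.0 to 16.4 CPM in EpiLC, where Hnf4a was at 0, and 7.01 to 10.7 CPM in ESC, but went both ways, with Dab2 and Gata4 called higher and Hnf4a and Sox17 lower. The 4 trophectoderm markers gave 6.02 to 7.32 CPM in EpiLC, where Elf5 was at 0, and 2.48 to 3.05 CPM in ESC, with 1 of 2 tested higher. The 7 markers of 2-cell-like cells gave 12.5 to 18.3 CPM in EpiLC and 10.7 to 14.9 CPM in ESC, which overlap, with 1 of 6 tested higher. The part of these markers' cells in the results was not tested. ESC replicate 3 stood apart from the other ESC libraries. Counts of its pairs over genes differed with a chi-square of 28.7 and 29.0 per degree of freedom, against 2.30 to 4.47 for EpiLC pairs and 2.75 for ESC replicates 1 and 2. Counts of calls, and values of some of the members it moved, are therefore also given without it.

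As a group the Zfp900 to Zfp999 genes were lower in EpiLC. Of the 64 members, 53 had counts high enough to be tested, 8 had 0 counts in every library, and 3 had too few counts. At an edgeR adjusted p under 0.05, 33 of the 53 (62.3%) fell in EpiLC and 4 (7.55%) rose, while 16 were not called. Over all 14996 genes tested, 64.6% were called, 32.6% lower and 32% higher. At least a 2-fold fall was called for 19 members (35.8%), against 12.4% of all genes, and at least a 2-fold rise for 1 member, against 17% of all genes. The median log2 fold change, EpiLC minus ESC, was -0.68 over the 53 members, with a range of -2.44 to 1.65, and 0.01 over all genes. In 33 members (62.3%) every EpiLC library lay below every ESC library, against 35.3% of all genes, and in 4 members every EpiLC library lay above. In either direction the states failed to overlap in 69.8% of the tested members and in 70.2% of all genes, so that share lay near the background. In bulk RNA, fewer cells expressing a gene and less RNA per cell cannot be told apart.

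The summed level of the 64 members was 1056, 1165 and 1135 CPM in the EpiLC libraries, against 1893, 1957 and 1932 CPM in the ESC libraries. All EpiLC sums lay below all ESC sums, and the mean was 1.72-fold lower in EpiLC. Without ESC replicate 3, 34 of 54 tested members were called lower, 6 higher, and 19 at least 2-fold lower. The other 340 numbered Zfp genes of the annotation are given for scale. Of their 305 tested genes, 105 (34.4%) were called lower in EpiLC and 86 (28.2%) higher, with a median log2 fold change of -0.03.

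Members were grouped by position, joining members whose starts lay within 2 Mb and keeping groups of 3 or more. This placed 43 members in 5 clusters, on chromosomes 4, 2, 7, 17 and 8, and left 21 outside. Of the tested members, 14 of 15 on chromosome 4, 3 of 3 on chromosome 2 and 4 of 4 on chromosome 7 fell in EpiLC, against 1 of 9 on chromosome 17 and 0 of 3 on chromosome 8. Of all genes tested, 32.6% fell and 32% rose, and in 70.2% the libraries of the states did not overlap. The counts by cluster below have the same background. On chromosome 2 the other 7 of 10 members could not be tested. With a gap of 0.5 Mb the chromosome 2 cluster split into 2 groups of 4 members, with Zfp967 and Zfp973 unplaced, and the other clusters kept their members.

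**Figure D1:**
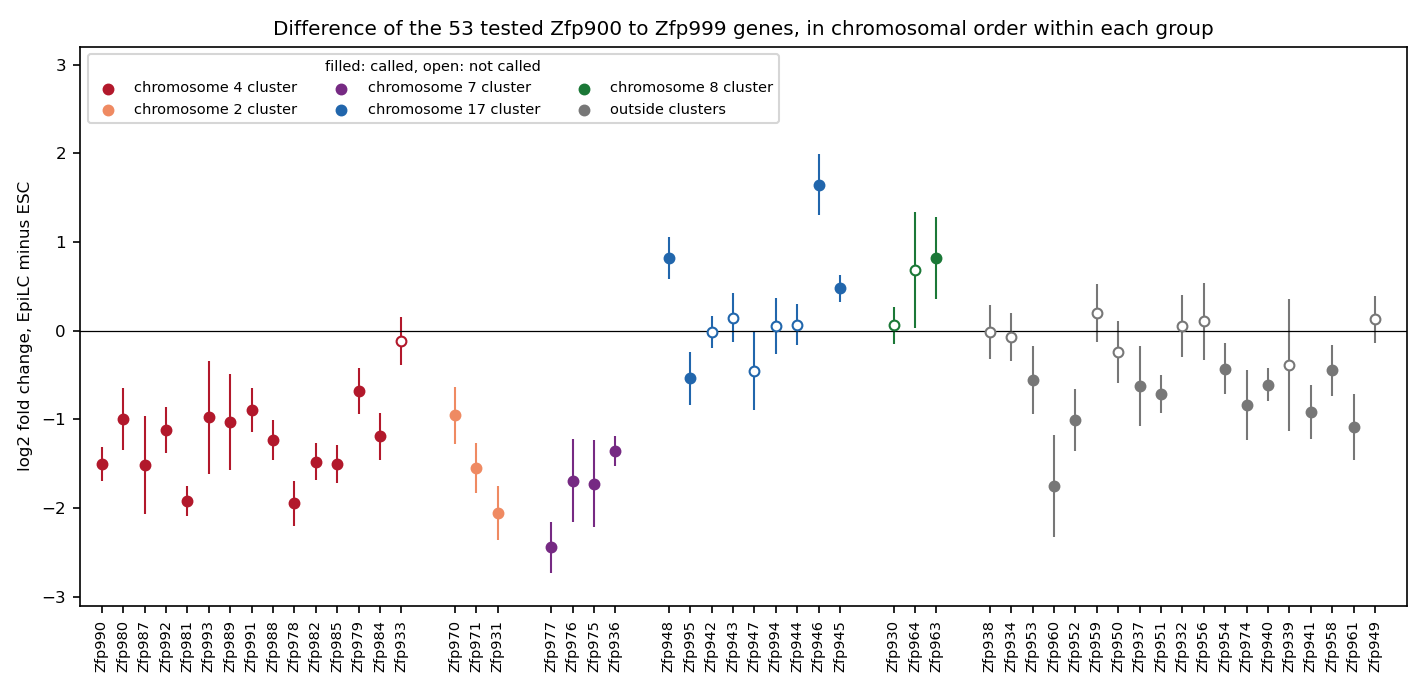
Log2 fold change, EpiLC minus ESC, with its 95% confidence interval for each of the 53 tested members, in chromosomal order within each group. Filled points were called at an adjusted p under 0.05 and open points were not. Zfp933 is the single open point among the 15 members of the chromosome 4 cluster, and the 4 called higher members, Zfp948, Zfp946, Zfp945 and Zfp963, lie in the chromosome 17 and 8 clusters.

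The chromosome 4 cluster, chr4:145510759-147848366, held 16 members, of which 15 were tested. In EpiLC 14 of them fell, 10 at least 2-fold, and Zfp933 was not called. The median log2 fold change was -1.19. Summed over the cluster, the level was 377, 437 and 420 CPM in EpiLC and 979, 1012 and 884 CPM in ESC, a mean 2.33-fold lower in EpiLC with no overlap between the states. This cluster supplied 36.8% of the members' summed CPM in EpiLC and 49.7% in ESC.

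The starts of these genes resemble one another. Among the 8 chromosome 4 members whose promoter was in the RefSeq table (250 bases before to 50 bases after the start), 7 shared 59.7% to 89.8% identity pairwise, while Zfp933 shared 46.8% to 51.1% with the others. Mismatches carried no penalty in these alignments, so values like those of Zfp933 do not by themselves show shared sequence. Both a CCAAT box (CCAAT, or ATTGG on the other strand) and a GC box (GGGCGG or CCGCCC) were searched on both strands. In 6 of the 8 the boxes are fused into ATTGGGCGG, in which ATTGG and GGGCGG share 2 bases. That 9-base string, on either strand, is in 0.278% of the 27025 gene promoters of the table. The 150 bases before the RefSeq start (GRCm38.p6), on the gene's own strand, are shown for 2 members that fell and for Zfp933, with the boxes in capitals, to show the repeated core and a start region that lacks it.
Zfp985 (chr4:147553127-147553276, plus strand): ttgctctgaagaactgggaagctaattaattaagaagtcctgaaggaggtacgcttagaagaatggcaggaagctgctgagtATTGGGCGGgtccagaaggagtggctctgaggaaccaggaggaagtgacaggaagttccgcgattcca
Zfp982 (chr4:147492267-147492416, plus strand): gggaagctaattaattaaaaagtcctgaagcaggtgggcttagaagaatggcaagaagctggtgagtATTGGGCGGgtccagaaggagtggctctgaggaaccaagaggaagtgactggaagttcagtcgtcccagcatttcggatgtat
Zfp933 (chr4:147848419-147848568, minus strand): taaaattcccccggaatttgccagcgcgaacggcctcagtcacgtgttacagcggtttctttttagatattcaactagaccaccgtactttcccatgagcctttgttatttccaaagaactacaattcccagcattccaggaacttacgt
The first 2 windows hold ATTGGGCGG once each, and the Zfp933 window holds neither box. The string did not separate members that fell from those that did not. It is also in the promoters of Zfp947 and Zfp994 on chromosome 17, which were not called, and it is not in that of Zfp987 on chromosome 4, which fell. A match in these letters is a description and not evidence of a bound factor.

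Zfp990 had the highest level per kilobase of exon in the cluster in ESC. Its level was 58.3, 68.6 and 67.0 CPM in EpiLC and 185, 193 and 170 CPM in ESC. Every EpiLC library was below every ESC library, and the fitted difference was -1.50 ± 0.09 on the log2 scale (SE, edgeR adjusted p = 2.42e-06). Zfp981 and Zfp978 fell furthest in the cluster. Zfp981 gave 27.1, 28.4 and 28.3 CPM in EpiLC and 104, 112 and 101 CPM in ESC, a log2 fold change of -1.92 ± 0.07 (SE). Zfp978 gave 12.04, 14.3 and 12.9 CPM in EpiLC and 51.3, 54.7 and 45.1 CPM in ESC, a log2 fold change of -1.94 ± 0.11 (SE). These are levels 3.79-fold lower for Zfp981 and 3.85-fold lower for Zfp978 in EpiLC, with no library overlapping. For Zfp978, however, 77.4% of its exonic 50-base words occur in other genes, so its counts are uncertain. The share was 40.0% for Zfp981 and 29.1% for Zfp990.

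Zfp985 had 44.1, 51.3 and 52.8 CPM in EpiLC and 145, 146 and 128 CPM in ESC. Zfp982, which has been described as a positive regulator of naive marker genes in mouse ESC, had 16.7, 19.6 and 18.1 CPM in EpiLC and 47.9, 51.9 and 52.1 CPM in ESC. The log2 fold changes were -1.50 for Zfp985 and -1.48 for Zfp982 (edgeR adjusted p = 3.45e-06 and 3.5e-06), and these members share 15.9% and 11.9% of their words with other genes, low values for this cluster. Zfp979 was the most abundant of all members by CPM and had the smallest called fall in this cluster. Its level was 119, 141 and 132 CPM in EpiLC and 225, 226 and 175 CPM in ESC, 1.60-fold lower in EpiLC, with the lowest of its ESC values in replicate 3. Without that library its log2 fold change was -0.798, against -0.675 with it.

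Further falls of at least 2-fold were called for Zfp987 (-1.51 on the log2 scale), Zfp988 (-1.23), Zfp984 (-1.19), Zfp992 (-1.12) and Zfp989 (-1.03). All 5 had non-overlapping libraries, as had 70.2% of all genes tested. Zfp980, Zfp993 and Zfp991 fell by less than 2-fold, with log2 fold changes of -0.99, -0.98 and -0.90. Without ESC replicate 3 the values were -1.12 for Zfp980 and -1.06 for Zfp993, and 12 members of the cluster in place of 10 were at least 2-fold lower. Of these 8 members, all but Zfp992 share over 50% of their words with another gene, and Zfp991 and Zfp992 encode proteins that are 98.95% identical. The fall of Zfp993, whose mean was 0.731 CPM in EpiLC and 1.42 CPM in ESC, was lost with DESeq2 (adjusted p = 0.111) and without ESC replicate 2 or EpiLC replicate 2. Over the alternatives its adjusted p otherwise stayed under 0.05.

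Zfp933 lies at the distal edge of the cluster, at chr4:147822986-147848366. It had 15.4, 14.8 and 12.9 CPM in EpiLC and 15.3, 16.8 and 14.2 CPM in ESC. The states overlapped, and the 95% interval of the log2 fold change ran from -0.39 to 0.16. Zfp933 also had the lowest share of words found in another gene within the cluster, 1.83%. Zfp986 is the opposite case, with 0 counts in each library and 86.4% of its words in other genes.

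**Figure D2:**
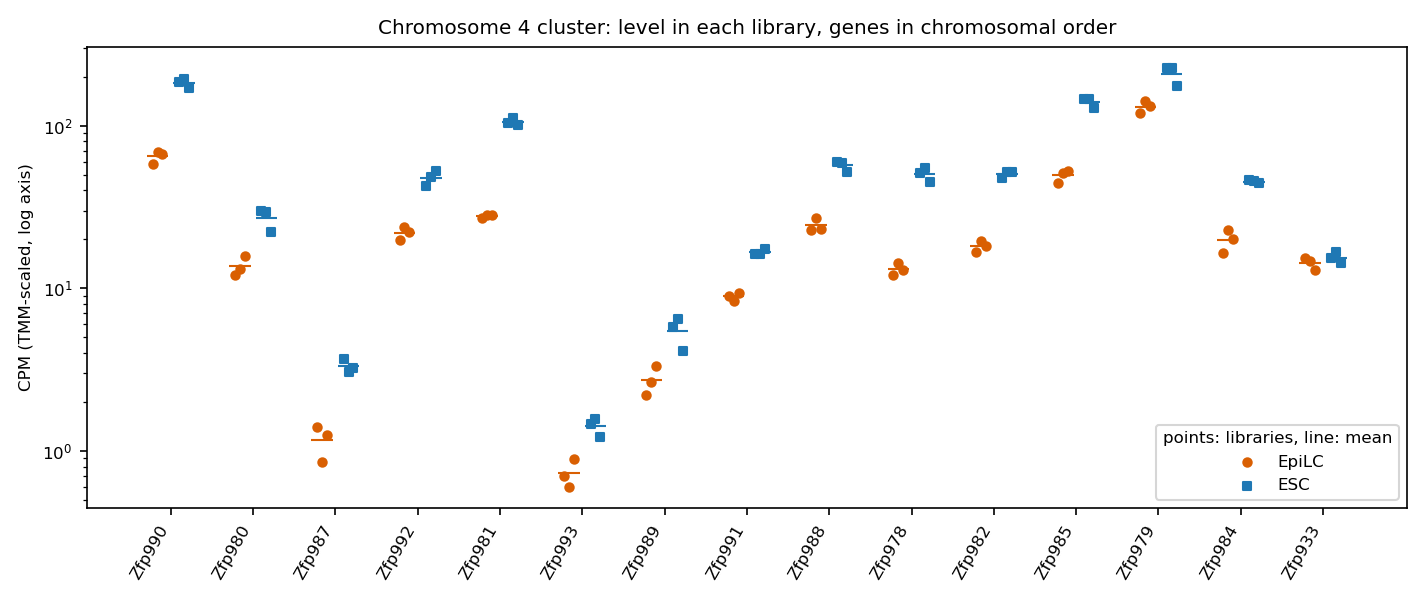
Level in CPM (log axis) of the 15 tested members of the chromosome 4 cluster, in chromosomal order, with EpiLC libraries as circles and ESC libraries as squares and lines at the means. The EpiLC points lie below the ESC points for 14 genes, and the points overlap for Zfp933 at the right.

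The chromosome 2 cluster, chr2:175372436-178078476, is the one where near-identical copies limit the data most. It held 10 members, of which 5 had 0 counts in every library and 3 could be tested. The proteins of Zfp966, Zfp967, Zfp968 and Zfp969 are identical over 485 residues, and those of Zfp965 and Zfp973 are identical over 318 residues. These 6 genes have 84.3% to 100% of their exonic 50-base words in another gene, and together they received 1 count, for Zfp967 in ESC replicate 3. How reads that map to several places were handled is not given in the sources used here, so a count of 0 does not tell whether a copy was silent. Zfp972, with 56.5% of its words in other genes, had 1 to 3 counts in EpiLC libraries and 6 to 13 in ESC libraries and was not tested.

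The start regions repeat in the same way. Over the 300 bases of the RefSeq promoter, Zfp966 and Zfp967 are 100% identical, and both are 88.9% identical to Zfp971, which received counts. All 9 chromosome 2 promoters in the table hold a CCAAT box and none a GC box. Of all promoters, 37.9% hold a CCAAT box and 35.9% a GC box on either strand. The 150 bases before the RefSeq start (GRCm38.p6) are shown for a copy with almost no counts and for 2 counted members, with the CCAAT box in capitals.
Zfp967 (chr2:176520854-176521003, plus strand): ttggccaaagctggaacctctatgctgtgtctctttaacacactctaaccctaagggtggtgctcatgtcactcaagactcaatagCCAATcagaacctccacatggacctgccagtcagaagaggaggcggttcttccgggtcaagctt
Zfp971 (chr2:178023134-178023283, plus strand): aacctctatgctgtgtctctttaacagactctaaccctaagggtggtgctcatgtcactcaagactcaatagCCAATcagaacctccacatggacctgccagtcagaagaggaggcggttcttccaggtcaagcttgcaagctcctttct
Zfp931 (chr2:178078426-178078575, minus strand): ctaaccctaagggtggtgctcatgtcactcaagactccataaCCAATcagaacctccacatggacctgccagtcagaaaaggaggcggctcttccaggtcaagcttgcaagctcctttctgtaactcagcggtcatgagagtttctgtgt
Each of the 3 windows holds 1 CCAAT box, and over the 300 bases their promoters are 70.4% to 88.9% identical.

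All 3 tested members fell in EpiLC. Zfp931 had 4.62, 4.02 and 3.66 CPM in EpiLC and 17.1, 16.4 and 17.7 CPM in ESC, a 4.16-fold lower level in EpiLC (log2 fold change -2.06 ± 0.13, SE, edgeR adjusted p = 4.33e-06). Zfp971, the member with the highest level per kilobase, had 5.72, 5.47 and 5.98 CPM in EpiLC and 15.4, 17.3 and 17.6 CPM in ESC. Zfp970 had 5.22, 4.79 and 5.18 CPM in EpiLC and 8.87, 10.1 and 10.5 CPM in ESC. No library overlapped for any of the 3, as for 70.2% of all genes tested. The differences were -1.55 for Zfp971 and -0.95 for Zfp970. The share of words found in other genes was 23.3% for Zfp931, 49.7% for Zfp970 and 51.1% for Zfp971. Summed over the cluster, the level was 15.9, 14.5 and 14.9 CPM in EpiLC and 41.6, 44.5 and 46.5 CPM in ESC.

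In the chromosome 7 cluster, chr7:42579783-43192109, all 4 members fell at least 2-fold in EpiLC. Their sum was 63.9, 71.6 and 66.2 CPM in EpiLC and 199.5, 205.7 and 233.4 CPM in ESC, the widest ratio of the 5 clusters at 3.17-fold lower in EpiLC. Zfp977 had the largest fall of all members. It gave 7.93, 10.9 and 8.21 CPM in EpiLC and 48.8, 51.3 and 47.3 CPM in ESC, 5.44-fold lower in EpiLC (log2 fold change -2.44 ± 0.12, SE, edgeR adjusted p = 1.47e-06). Of its words 8.47% are found in another gene, below the median of 17.8% over the 64 members. Zfp936, the most abundant of the 4 by CPM, gave 36.03, 41.3 and 39.6 CPM in EpiLC and 97.4, 101 and 102 CPM in ESC, a log2 fold change of -1.36.

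Zfp976 and Zfp975, which lie side by side, both had a high value in ESC replicate 3. Zfp976 gave 9.33, 9.49 and 10.5 CPM in EpiLC and 26.8, 26.6 and 42.4 CPM in ESC. Zfp975 gave 10.6, 9.92 and 7.86 CPM in EpiLC and 26.5, 26.6 and 41.7 CPM in ESC. Without that library the log2 fold changes were -1.46 for Zfp976 and -1.50 for Zfp975, against -1.69 and -1.73 with it, and both stayed called. The windows of 150 bases before the RefSeq starts (GRCm38.p6) of Zfp977 and Zfp976 (promoter identity 80.8%) are shown as the most alike pair of this cluster, with CCAAT boxes in capitals (CCAAT or ATTGG).
Zfp977 (chr7:42592546-42592695, minus strand): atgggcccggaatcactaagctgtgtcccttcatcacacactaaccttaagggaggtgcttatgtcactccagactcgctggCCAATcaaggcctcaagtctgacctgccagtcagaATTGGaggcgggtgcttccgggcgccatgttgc
Zfp976 (chr7:42642605-42642754, minus strand): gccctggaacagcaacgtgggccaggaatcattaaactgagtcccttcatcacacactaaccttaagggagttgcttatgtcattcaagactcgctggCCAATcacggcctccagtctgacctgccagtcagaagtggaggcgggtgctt
All 3 chromosome 7 promoters in the table hold a CCAAT box, and none holds GGGCGG.

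**Figure D3:**
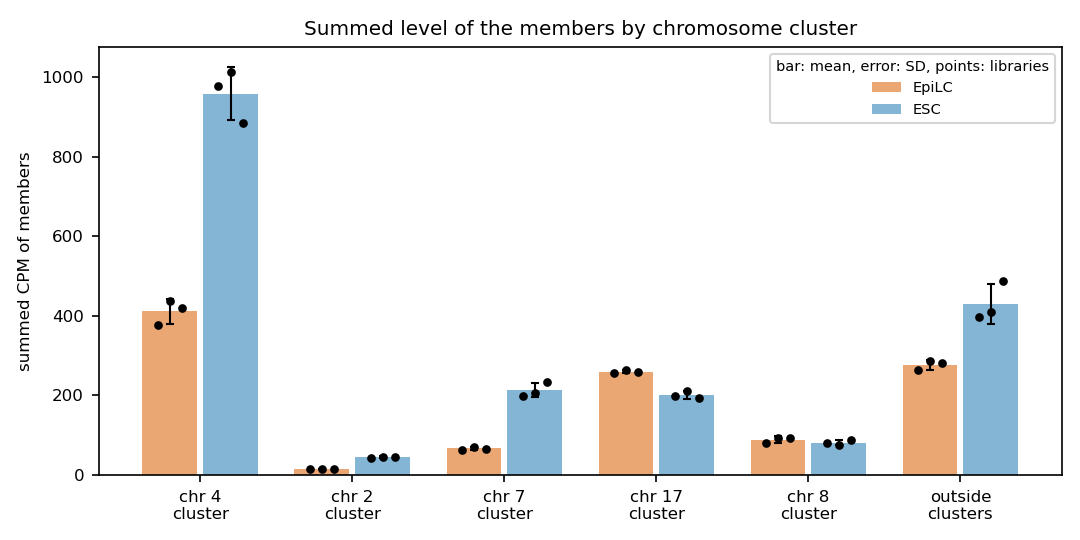
Summed CPM of the members of each cluster and of the 21 members outside, as the mean of 3 libraries (bar) with its SD and the single libraries (points), EpiLC left of ESC. The chromosome 4, 2 and 7 sums are lower in every EpiLC library than in every ESC library, and the chromosome 17 sum is higher in every EpiLC library.

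The members of the chromosome 17 cluster, chr17:21567008-22867134, went the other way in sum. The sum of the other genes in its span, described below, was lower in EpiLC, mainly through Zfp229. The cluster held 10 members, of which 9 were tested, 3 rose, 1 fell and 5 were not called. The members' median there was 0.07 on the log2 scale. The sum was 255.7, 263 and 259 CPM in EpiLC and 198, 212 and 192 CPM in ESC, so this cluster supplied 23.2% of the members' summed CPM in EpiLC and 10.4% in ESC. Zfp946 rose most. It had 29.1, 29.5 and 24.6 CPM in EpiLC and 9.55, 9.64 and 6.88 CPM in ESC, with a log2 fold change of 1.65 ± 0.15 (SE, edgeR adjusted p = 2.71e-05). Zfp948, the highest of the cluster per kilobase in EpiLC, had 39.3, 40.4 and 39.9 CPM in EpiLC and 23.3, 24.7 and 19.3 CPM in ESC, a log2 fold change of 0.82. Zfp945 had 82.5, 86.6 and 82.6 CPM in EpiLC and 57.3, 61.4 and 62.0 CPM in ESC, a log2 fold change of 0.48. Without ESC replicate 3 the log2 fold changes were 1.515 for Zfp946, 0.715 for Zfp948 and 0.486 for Zfp945. For all 3 every EpiLC library lay above every ESC library, and each shares between 0.115% and 1.75% of its words with another gene.

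Zfp995 was the one member of this cluster to fall, with 6.12, 6.50 and 7.23 CPM in EpiLC and 9.18, 10.2 and 9.41 CPM in ESC. Its protein is 90.39% identical to that of Zfp947, which had 3.71, 4.28 and 4.73 CPM in EpiLC and 6.43, 6.22 and 4.53 CPM in ESC. The log2 fold change of Zfp947 was -0.46 and was not called (edgeR adjusted p = 0.065), but without ESC replicate 3 it was -0.58 (adjusted p = 0.00373). Zfp942 and Zfp943 start 88 bases apart on opposite strands and were not called. Zfp942 gave 42.1, 42.3 and 44.8 CPM in EpiLC and 40.5, 45.6 and 44.7 CPM in ESC, with a 95% interval of -0.20 to 0.16. Zfp943 gave 13.4, 12.3 and 11.9 CPM in EpiLC and 10.5, 12.3 and 11.1 CPM in ESC. The libraries overlapped for both. Zfp944, with 30.0 to 32.2 CPM in EpiLC and 25.9 to 31.8 CPM in ESC, and Zfp994, with 8.43 to 10.2 CPM in EpiLC and 7.93 to 9.46 CPM in ESC, also overlapped. Zfp983 had 7 to 10 counts in EpiLC libraries and 7 to 15 in ESC libraries and was not tested.

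Start regions in this cluster were less alike than on chromosome 4, with pairwise identities of 45.9% to 84.3% and a median of 49.7%. Values near that median do not by themselves show shared sequence, and copies whose RefSeq starts are displaced score lower. CCAAT boxes were in 3 of the 10 promoters and GC boxes in 7. The windows of Zfp942 and Zfp943 overlap on opposite strands, so the same GC box is counted for both. The 150 bases before the RefSeq start (GRCm38.p6) are shown for Zfp942, which did not change beyond its spread, and for Zfp946, which rose, with GC boxes in capitals and no CCAAT box in either window.
Zfp942 (chr17:21962465-21962614, minus strand): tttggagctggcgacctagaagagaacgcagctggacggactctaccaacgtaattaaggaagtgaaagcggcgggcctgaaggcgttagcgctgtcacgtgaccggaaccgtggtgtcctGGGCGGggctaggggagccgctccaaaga
Zfp946 (chr17:22424052-22424201, plus strand): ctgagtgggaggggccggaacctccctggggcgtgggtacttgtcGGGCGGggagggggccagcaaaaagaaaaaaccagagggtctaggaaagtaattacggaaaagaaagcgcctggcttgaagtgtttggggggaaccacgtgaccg
Across the 50 members whose RefSeq start lay within 250 bases of the annotated gene start, 38 promoters held a CCAAT box and 18 a GC box. None held TATAAA or its complement TTTATA, which 14.2% of all promoters hold. No test of these shares was made.

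The chromosome 8 cluster, chr8:69209038-69749970, held 3 members. Zfp963 rose, with 5.52, 5.05 and 4.20 CPM in EpiLC and 2.80, 2.34 and 3.40 CPM in ESC (log2 fold change 0.82 ± 0.20, SE, edgeR adjusted p = 0.0071), and 38.7% of its words lie in an annotated gene that overlaps it. Zfp930, the highest per kilobase, had 66.0, 78.9 and 80.9 CPM in EpiLC and 72.0, 69.1 and 75.8 CPM in ESC and was not called. Zfp964 had 7.93, 8.98 and 8.75 CPM in EpiLC and 4.51, 3.79 and 8.54 CPM in ESC, so that a single ESC library reached the EpiLC range. That library was replicate 3. With it the log2 fold change was 0.69 (edgeR adjusted p = 0.0623), and without it 1.04 (adjusted p = 1.48e-05). With the replicate block its adjusted p was 0.0491.

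Of the 21 members outside clusters, 19 were tested, 11 (57.9%) fell, none rose and 8 were not called, and the median log2 fold change was -0.44. Over all genes tested, 32.6% fell and 32% rose. Zfp960, on chromosome 17 away from the cluster, had 7.03, 8.72 and 7.23 CPM in EpiLC and 20.03, 21.9 and 36.6 CPM in ESC, a log2 fold change of -1.75 (edgeR adjusted p = 0.0004), and -1.46 without ESC replicate 3. Most of its words, 82.7%, occur in other genes, chiefly Zfp97. Zfp961, on chromosome 8, had 53.2, 50.04 and 58.9 CPM in EpiLC and 97.4, 100 and 147 CPM in ESC. Its log2 fold change was -1.08 with all libraries and -0.89 without ESC replicate 3. Zfp952 had 7.33, 8.38 and 6.61 CPM in EpiLC and 14.2, 13.7 and 17.5 CPM in ESC, a log2 fold change of -1.01, and -0.91 without ESC replicate 3. All 3 stayed called without that library, but the count of members outside clusters past 2-fold was 1 in place of 3.

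The other 8 members outside clusters that fell did so by less than 2-fold. They were Zfp941 (-0.92 on the log2 scale), Zfp974 (-0.84), Zfp951 (-0.71), Zfp937 (-0.62), Zfp940 (-0.61), Zfp953 (-0.56), Zfp958 (-0.44) and Zfp954 (-0.43). Of these calls, 4 were lost when a library was left out. Zfp937 was lost without ESC replicate 1, EpiLC replicate 2 or EpiLC replicate 3, Zfp954 without ESC replicate 2, EpiLC replicate 2 or EpiLC replicate 3, Zfp953 without EpiLC replicate 1 or 2, and Zfp958 without EpiLC replicate 1 or 3. Zfp940 had the narrowest spread of them, with 21.8, 21.3 and 22.1 CPM in EpiLC and 32.3, 32.5 and 34.6 CPM in ESC. Zfp932, which is known to repress a class of endogenous retroviruses in mouse ESC, was not called, with 12.1, 13.2 and 14.0 CPM in EpiLC and 13.6, 13.8 and 9.84 CPM in ESC. The 95% interval of its log2 fold change was -0.29 to 0.41. Of its words 37.0% occur in other genes, chiefly Gm15446 (34.9%), so its counts are uncertain.

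Zfp956 was not called, with 12.3, 15.5 and 12.1 CPM in EpiLC and 10.5, 11.1 and 16.1 CPM in ESC, but was called higher without ESC replicate 3 (log2 fold change 0.29, edgeR adjusted p = 0.0409). Zfp934, Zfp938, Zfp949, Zfp950 and Zfp959 were also not called, with log2 fold changes between -0.24 and 0.20, mean levels of 7.66 to 13.7 CPM in EpiLC and 6.59 to 12.5 CPM in ESC, and overlapping libraries. The pseudogene Zfp939 averaged 1.74 ± 0.92 CPM in EpiLC and 2.33 ± 0.12 CPM in ESC (SD, n = 3 each) and was not called, except without EpiLC replicate 3, where its log2 fold change was -0.90. Zfp935 and Zfp957 had 0 counts in each library. All annotated words of Zfp935 lie in genes that overlap it, among them Zfp934, whereas 0.229% of the words of Zfp957 occur in another gene and its 0 counts are a measurement at the limit given above.

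Traits of the members were set beside their log2 fold changes. At least 50% of the exonic 50-base words were in another gene for 18 members, of which 8 were not tested, and all 10 tested ones fell, with a median log2 fold change of -1.21. Of the 46 members under that share, 43 were tested, and 23 (53.5%) fell, 4 (9.3%) rose and 16 were not called (median -0.46). Over all genes tested, 32.6% fell and 32% rose. Across the 53 tested members Pearson's r between the share and the log2 fold change was -0.50 and Spearman's rho -0.60. These are descriptions across genes, which share clusters and libraries and are not independent, and the cluster on chromosome 4 holds most of the highest shares. Across the 52 tested members with a protein, the number of C2H2 fingers showed r = 0.09. The log2 level per kilobase in ESC, which is itself part of the fold change, gave r = -0.50, and exon length gave r = 0.32 (53 members each). Fingers, counted by their spacing pattern in the annotated protein, ranged up to 21 with a median of 11, and a KRAB box-like stretch was found in 60 of the 63 proteins, Zfp956, Zfp957 and Zfp974 being the exceptions. With 100-base words, 12 members in place of 18 had at least 50% of their words in another gene.

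**Figure D4:**
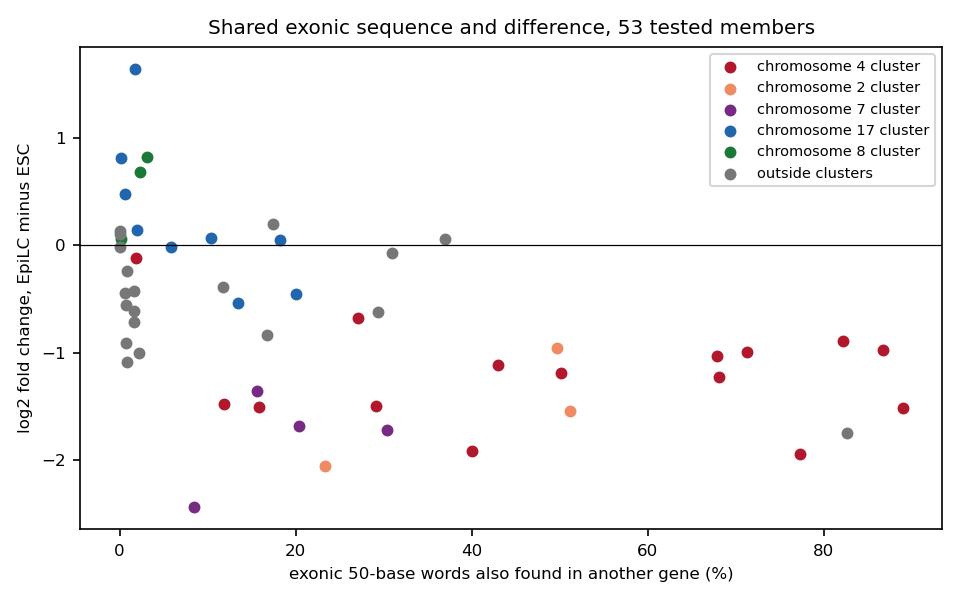
Share of each member's exonic 50-base words that is also found in another gene (x axis, percent) and log2 fold change, EpiLC minus ESC (y axis), for the 53 tested members, coloured by cluster. All 10 members at or above 50% lie below 0, and members on both sides of 0 are seen at the left.

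Other protein-coding genes that start inside the 5 cluster spans were read for comparison. Of 52 such genes 26 were tested, and 22 (84.6%) fell in EpiLC, 1 rose and 3 were not called. Of all genes tested, 32.6% fell. Several neighbours, among them Zfp600, Rex2 and Gm13212, share exonic words with members, so they are not an independent comparison. The median below is that of the 26 tested neighbours. Their median was -1.30 on the log2 scale. Some are named here after their values were seen. Zfp600, between members of the chromosome 4 cluster, had 3.91, 4.19 and 4.73 CPM in EpiLC and 24.2, 25.9 and 22.6 CPM in ESC, a log2 fold change of -2.50. Zfp229, inside the chromosome 17 cluster whose members mostly did not fall, had 29.9, 31.0 and 33.1 CPM in EpiLC and 155, 160 and 139 CPM in ESC, a log2 fold change of -2.27. In that span 3 of 4 tested neighbours fell. The 7 neighbours there had a mean sum of 110 CPM in EpiLC and 255 CPM in ESC. Zfp229 alone averaged 31.4 CPM in EpiLC and 151 CPM in ESC. The other tested neighbours there were Zfp820 (log2 fold change -1.105), Zfp758 (-0.348) and Zfp760 (0.043, not called). On chromosome 2 all 11 tested neighbours fell, with a log2 fold change of -2.66 for Gm14325. Of the words of Zfp980, 56.6% lie in Zfp600, and of those of Zfp931, 8.30% lie in Gm14325. Shares of the neighbours' own words were not computed, so their counts are uncertain. The gene that rose was Gm16503 on chromosome 4, at 2.61, 2.57 and 2.77 CPM in EpiLC and 0.259, 0.406 and 1.48 CPM in ESC.

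RNA of the genes for proteins through which KRAB zinc fingers act was measured in the same libraries. Of 19 corepressor genes 10 (52.6%) fell in EpiLC, 7 (36.8%) rose and 2, Cbx1 and Cbx3, were not called. Over all genes tested, 32.6% fell and 32% rose. The list's median was -0.24 on the log2 scale. Without EpiLC replicate 3, 4 in place of 7 were called higher and 10 lower. Trim28, the corepressor bound by the KRAB domain, averaged 1381 ± 83.4 CPM in EpiLC and 2103 ± 83.7 CPM in ESC (SD, n = 3 each), a log2 fold change of -0.61 (edgeR adjusted p = 0.00012). Setdb1, the histone methyltransferase it recruits, changed by -0.24. Uhrf1, which helps maintain DNA methylation, and Fam208a, the TASOR subunit of the HUSH silencing complex, had log2 fold changes of -1.23 and -1.08. Chd3, a chromatin remodeller of the NuRD complex, and Pphln1, another HUSH subunit, rose, with log2 fold changes of 1.37 and 2.43. The listed genes moved in both directions, as did the genes tested as a whole.

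Of 5 KRAB zinc finger genes with well known targets, Zfp57, which protects imprints, had 56.9, 50.1 and 47.7 CPM in EpiLC and 295, 315 and 311 CPM in ESC. Its log2 fold change was -2.58, past that of any member. Zfp445, which also acts at imprinted regions, rose by 0.22 on the log2 scale (edgeR adjusted p = 0.0208), and Zfp809, which silences murine leukaemia viruses, had a log2 fold change of -0.40 (adjusted p = 0.00323). Zfp568, known for repressing a placental Igf2 transcript, had 373, 355 and 385 CPM in EpiLC and 385, 418 and 396 CPM in ESC and was not called. Zfp708 had almost no counts and was not tested.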

How the data were processed

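The authors deposited raw read counts per Ensembl gene in 1 table. Per the submitters' processing notes, reads were handled with cutadapt, STAR, featureCounts and DESeq2 on the build mm10. Per the labels' protocols, ribosomal RNA was depleted and a stranded Kapa kit was used. The sources used here do not give the annotation release, the strand setting or the handling of reads with several matches, so overlapping genes, antisense partners and near-identical copies are uncertain. The 92 spike-in rows held 0 counts and were left out.

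Counts were tested with edgeR 4.0.16 in R 4.3.3 (TMM scaling, filterByExpr with a minimum of 10 counts, quasi-likelihood test, two-sided, state as the single term). Benjamini-Hochberg adjustment ran over the 14996 tested genes, with calls at 0.05. The biological coefficient of variation was 12.5%. The fit was tested on simulated data. Alternatives were DESeq2 1.42.0, other scalings, other filters, the replicate number as a block and leaving out each library. The labels do not say whether library numbers pair the samples.

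Symbols, positions and transcripts came from GENCODE M21 on GRCm38, the assembly of mm10, and promoters from the RefSeq table of GRCm38.p6. A word is a run of 50 bases of a member's transcripts, and it was called shared when found on either strand in transcripts of an annotated gene that does not overlap the member. The whole genome was not searched. Protein identity is identical columns over aligned columns, from translated coding sequences.

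Named were members called at 2-fold or more, the highest per kilobase in each cluster, near-identical members, and uncalled members at 5 CPM or more. Others are named to account for the list. Members and lists were chosen with earlier results of these data known.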

Additional observations from a re-analysis of the deposited data

How the results depend on the processing

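Over the 13 alternatives the number of members called lower was 29 to 34, against 33, and the number called higher 4 to 6, against 4. With the replicate block, 33 members were called lower and 5 higher, the addition being Zfp964. The labels state no pairing by number. Same-numbered libraries had deviations correlated at -0.085, -0.006 and -0.149, and unlike-numbered ones at -0.131 to 0.142. With 3 libraries per state these values cannot tell whether same-numbered libraries were handled together. The median over members was -0.61 with library totals, -0.77 without the filter and -0.76 without EpiLC replicate 3. Corepressor genes called higher were 4 to 7 when a library was left out, with 4 without EpiLC replicate 3. Neighbours called higher were 1 to 2 when a library was left out and 2 with the replicate block, against 1. Without ESC replicate 3, 2 members of the chromosome 17 cluster fell in place of 1, 2 of the chromosome 8 cluster rose in place of 1, and 1 outside clusters rose in place of 0.

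For members named by the rule above, 494 results kept their direction and their side of the threshold. A further 4 gained a call, for Zfp947, Zfp956 and Zfp964, and 3 lost it, for Zfp993. The 19 that changed sign belong to uncalled genes near 0. Zfp937, Zfp939, Zfp953, Zfp954 and Zfp958, whose calls changed as given above, were not among the members of these counts. Without the filter the log2 fold change was -0.007 for Zfp930, -0.019 for Zfp932, -0.008 for Zfp944 and -0.023 for Zfp994. With library totals it was 0.055 for Zfp938 and 0.050 for Zfp942, and with upper quartile scaling 0.035 for Zfp938 and 0.031 for Zfp942. When a library was left out it ran from -0.001 to 0.148 for Zfp930, -0.079 to 0.125 for Zfp932, -0.109 to 0.050 for Zfp938, -0.085 to 0.005 for Zfp942, -0.031 to 0.099 for Zfp944, -0.026 to 0.288 for Zfp956 and -0.038 to 0.107 for Zfp994. The causes were not tested. Members under 3 counts, and copies whose words lie in other genes, cannot be read at this depth and with this counting.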
